A study of Sus scrofa with 8 samples.

Results

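The interferon receptor chains are the 5 genes IFNAR1, IFNAR2, IFNGR1, IFNGR2 and IFNLR1, which were found by their symbols among the 24358 genes of the count table. All 5 had a row there, and 4 of the 5 passed the filter on low counts that left 13250 genes to be tested. The cells, named DOX-hLIF-2i piPSCs, are induced pluripotent stem cells of the pig that were made from embryonic fibroblasts that carried an OCT4-tdTomato reporter, by transduction with FUW-OSKM and FUW-M2rtTA, and they depend on doxycycline. This name and description are the study's, whereas the deposited growth protocol names an LCDMV culture system for these libraries, and the sources used here do not settle which medium was used. The IRF-1 overexpressing cells (replicates 1 and 3) received PB-CAG-IRF1-Flag, in which the CAG promoter drives an IRF1 insert cloned from fibroblast cDNA, together with the PCAGPBase plasmid, and the control cells (replicates 6 and 8) received PB-CAG-Flag without the insert. Both groups went through puromycin selection, and feeder cells were depleted by plating before RNA was taken. The genotype field of the sample labels gives overexpression for all 4 libraries, so the groups rest on the library numbers that the study assigns to each group.

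Interferons signal through pairs of receptor chains at the cell surface. Type I interferons bind IFNAR1 and IFNAR2, type II interferon (interferon gamma) binds IFNGR1 and signals with IFNGR2, and type III interferons bind IFNLR1, which shares its partner IL10RB with receptors of the interleukin-10 family. The kinases JAK1, JAK2 and TYK2 sit on these chains and phosphorylate transcription factors of the STAT family, and IRF-1 is itself a transcription factor of the interferon response.

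Library totals were 24923319 and 20858333 counts in the IRF-1 overexpressing replicates 1 and 3, and 15925429 and 17097669 counts in the control replicates 6 and 8. Depth was therefore higher in both overexpressing libraries than in both controls, and its part in the results was not tested. Levels are given as CPM, counts per 1000000 after scaling by library size and TMM factor, in which 1 count was worth between 0.0403 and 0.064 CPM. IRF1 (ENSSSCG00000014277) was counted 8206 and 5485 times in the overexpressing replicates and 55 and 56 times in the controls. The libraries therefore separate by IRF1 in the way the groups were assigned, with a log2 fold change of 6.46 (SE 0.21, adjusted p = 3.65e-05, edgeR). Reads from the introduced insert and from the pig's own gene are not separated in these counts.

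Among the receptor chains, IFNAR1 was higher in the IRF-1 overexpressing cells, IFNLR1 had 9 and 10 counts in the controls and at most 2 in the overexpressing libraries, while IFNAR2 and IFNGR1 did not pass the test and IFNGR2 was close to 0 counts in both groups. A gene is said here to have risen or fallen when its adjusted p in edgeR was under 0.05. By this rule 1 of the 4 tested members rose, where 13.9% of all tested genes did, and 1 of the 4 fell, where 15.5% did. With a fold limit as a further condition (a log2 value of 1 or more in either direction), the members' counts were again 1 and 1, beside 8.61% of all genes higher and 10.6% lower. The member that fell, IFNLR1, entered the tested set only through the control group in which it was higher, so that both the 4 tested and the 1 lower depend on the low-count filter and support nothing about the members as a group. The median log2 fold change of all tested genes was -0.0016. In bulk RNA, a change in the share of cells that express a gene and a change in RNA per cell cannot be told apart.

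IFNAR1 (ENSSSCG00000033115), the chain of the type I receptor that binds TYK2, occupies positions 196925707 to 196950532 of chromosome 13 in the assembly Sscrofa11.1, on the plus strand. It was counted 418 and 278 times in the overexpressing replicates and 120 and 127 times in the controls, or at 16.8 and 13.4 CPM against 7.68 and 7.26 CPM. Both overexpressing libraries stood above both controls, and the controls lay close together. Overexpressing cells had a mean of 15.1 ± 2.45 CPM and control cells one of 7.47 ± 0.296 CPM (SD, n = 2 for each mean). The log2 fold change was 1.02 (SE 0.24, adjusted p = 0.0173, edgeR), with a 95% interval from 0.45 to 1.58. This estimate lies just past the fold limit of 1. Without overexpressing replicate 1 it was 0.85 and no longer passed the test (adjusted p = 0.155, edgeR), in a range of adjusted p from 0.0021 to 0.155 over all 13 alternatives.

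IFNAR2 (ENSSSCG00000036556), the chain of the type I receptor that binds JAK1, is on the same strand of chromosome 13, where its row spans 196766082 to 196884929. It was counted 310 and 187 times in the overexpressing replicates and 161 and 100 times in the controls, or at 12.5 and 8.99 CPM against 10.3 and 5.72 CPM. The groups overlapped, since control replicate 6 was above overexpressing replicate 3. The group means were 10.7 ± 2.47 CPM with overexpression and 8.01 ± 3.24 CPM without it (SD, n = 2 for each). The log2 fold change of 0.43 (SE 0.34, adjusted p = 0.392, edgeR) did not pass the test, and its 95% interval ran from -0.37 to 1.22. The value moved with each control library that was left out, from 0.91 without control replicate 6 to 0.069 without control replicate 8.

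The row named IFNAR2 also covers the neighbouring gene IL10RB, the partner chain of IFNLR1. In RefSeq annotation of the same assembly, IFNAR2 ends at 196852640 and IL10RB runs from 196853606 to 196884237. Of the 17 exon blocks of the row, 7 lie past the RefSeq end of IFNAR2, and each of these overlaps the IL10RB interval. They hold 1920 of the row's 6040 exon bases, or 31.8%, and 1089 of these, 18% of the row, lie inside the RefSeq span of IL10RB itself. IL10RB has no row of its own under its symbol, so reads of IFNAR2 and IL10RB cannot be told apart in these counts, and every value given for IFNAR2 is a value of the joint row.

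**Figure D1:**
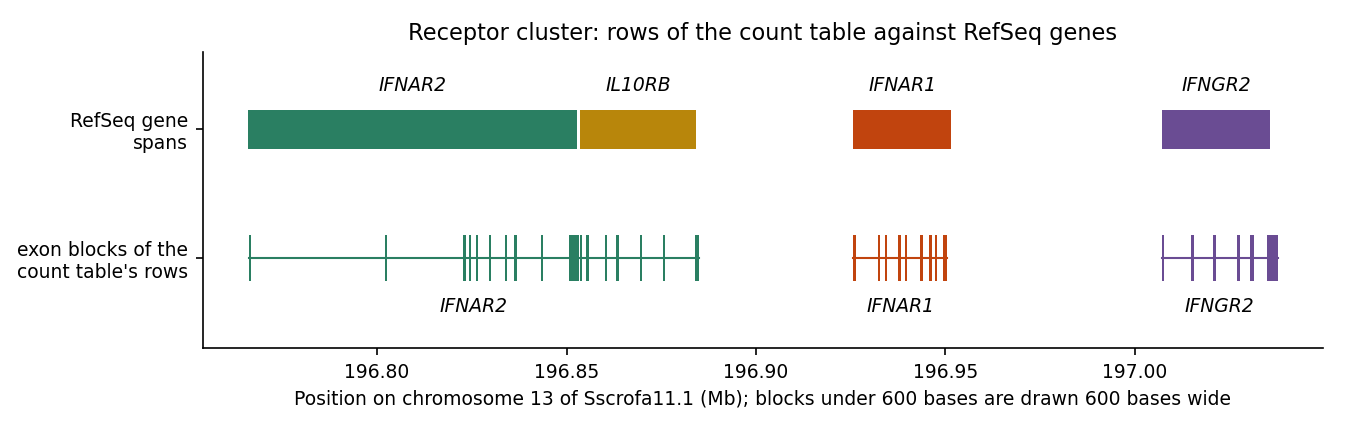
Map of the receptor cluster on chromosome 13 of Sscrofa11.1 (position in Mb), with RefSeq gene spans as bars above and the exon blocks of the count table's rows below. The last 7 of the 17 blocks of the row named IFNAR2 lie over IL10RB, while the rows of IFNAR1 and IFNGR2 start inside or next to the spans of their own genes.

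IFNGR1 (ENSSSCG00000004156), the chain that binds interferon gamma, lies on the plus strand of chromosome 1, from 27036892 to 27061093. It was counted 50 and 27 times in the overexpressing replicates and 33 and 47 times in the controls, or at 2.01 and 1.3 CPM against 2.11 and 2.69 CPM. Both overexpressing libraries were below both controls, but overexpressing replicate 1 and control replicate 6 nearly met. Mean levels were 1.66 ± 0.505 CPM with overexpression and 2.4 ± 0.407 CPM in the controls (SD, n = 2 for each). The log2 fold change of -0.53 (SE 0.42, adjusted p = 0.391, edgeR) did not pass the test, with a 95% interval from -1.51 to 0.45. With 1 library left out it ranged from -0.87 without overexpressing replicate 1 to -0.25 without overexpressing replicate 3.

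IFNGR2 (ENSSSCG00000034378), the signalling partner of IFNGR1, lies on the plus strand of chromosome 13 from 197007156 to 197037676. It was counted 3 and 2 times in the overexpressing replicates and 0 and 2 times in the controls. No library held more than 3 counts, the floor used here for each library, which corresponds to between 0.121 and 0.192 CPM. A difference between the groups was not detectable at this depth, and no fold change is given.

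IFNLR1 (ENSSSCG00000032860), the chain that gives the type III receptor its ligand, lies on the minus strand of chromosome 6 from 81892890 to 81914142. It was counted 0 and 2 times in the overexpressing replicates and 9 and 10 times in the controls, or at 0 and 0.0961 CPM against 0.576 and 0.572 CPM. The overexpressing libraries were at or below the floor although they were the deeper ones, and both controls were above it. The ratio of summed counts per effective library size, overexpressing over control, was 0.0764, with an exact 95% counting interval from 0.00863 to 0.317 that covers counting error only. The fitted log2 fold change was -3.52 (SE 0.98, adjusted p = 0.0311, edgeR), and it rests on 21 counts in all. Since IFNLR1 passed the low-count filter only through the controls, this test is given as a description and not as support for a difference. The call was lost with DESeq2 (adjusted p = 0.127) and without overexpressing replicate 1 (log2 fold change -2.48, adjusted p = 0.246, edgeR), in a range of adjusted p from 0.0196 to 0.246 over the 10 alternatives that gave a value. Without overexpressing replicate 3 the log2 fold change was -6.48 (adjusted p = 0.0481, edgeR), set by a lone library at 0 counts. Without control replicate 6 or control replicate 8, IFNLR1 did not pass the low-count filter.

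**Figure D2:**
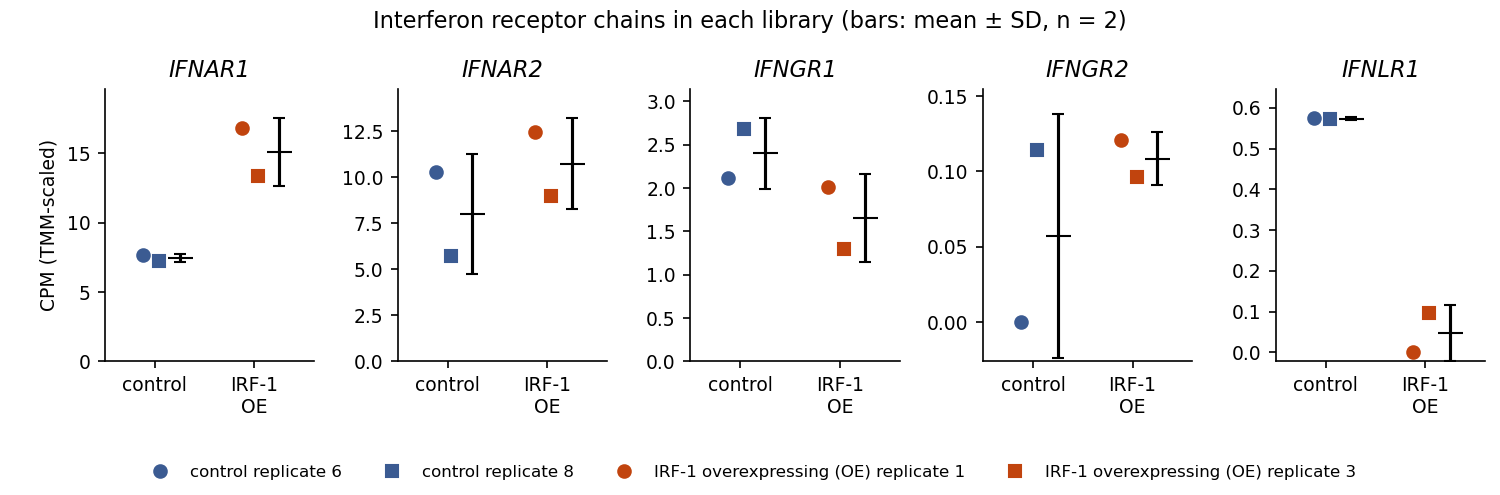
Level of the 5 receptor chains in each library, in CPM on a separate linear axis for each gene, with the mean ± SD (n = 2) drawn beside the points of each group. IFNAR1 is at 13.4 and 16.8 CPM in the IRF-1 overexpressing libraries and under 7.7 CPM in both controls, IFNLR1 is near 0.57 CPM in the controls alone, the IFNAR2 groups overlap, and lower SD bars that pass below 0 belong to means of 0 to 3 counts.

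Levels of different chains were compared per kilobase of exon. In the control cells the order was IFNAR1 at 2.67 ± 0.106 CPM per kilobase (SD, n = 2), the joint IFNAR2 row at 1.33 ± 0.537, IFNGR1 at 0.43 ± 0.0728, IFNLR1 at 0.0923 ± 0.00049 and IFNGR2 at 0.0141 ± 0.0199. No neighbours in this order overlapped in the 2 control libraries. In the overexpressing cells IFNAR1 was at 5.4 ± 0.875 CPM per kilobase (SD, n = 2), the joint IFNAR2 row at 1.78 ± 0.408 and IFNGR1 at 0.296 ± 0.0905. These 3 did not overlap, whereas IFNGR2 at 0.0267 ± 0.0043 and IFNLR1 at 0.00773 ± 0.0109 rested on 5 and 2 counts and could not be ordered at this depth. Among all tested genes, the level of IFNAR1 stood at the 29.9th percentile in the controls and at the 44.4th in the overexpressing cells, and that of IFNGR1 at the 9.95th and 7.55th.

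The ratio of IFNAR1 to the joint IFNAR2 row, per kilobase, was 2.91 and 3.21 in the overexpressing replicates 1 and 3, and 1.61 and 2.74 in the control replicates 6 and 8. Both overexpressing libraries were above both controls, with control replicate 8 close to overexpressing replicate 1. The log2 difference was 0.54, and the 2-sided exact permutation test gave p = 0.33, the smallest that 2 libraries against 2 allow. Without control replicate 6 the difference was 0.16, and without control replicate 8 it was 0.93. Ratios for the type II and type III receptors could not be formed, because IFNGR2 had 0 counts in control replicate 6 and IL10RB has no row of its own.

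IFNAR2, IFNAR1 and IFNGR2 lie in this order within 271595 bases of chromosome 13, with IL10RB between the first pair and a row without a symbol between the last, a position that played no part in choosing them. The gaps between their rows are 40.8 kb and 56.6 kb. Of the 15 other rows within 500 kb, 9 were tested, and 0 passed the test in edgeR, in DESeq2 and in limma-voom, with 1 at an unadjusted p under 0.05, where 13.9% of all tested genes rose and 15.5% fell. With these shares, 0 of 9 says little about the neighbours. Their log2 fold changes ranged from -0.17 to 0.77, with a median of -0.0056. The highest values belonged to DNAJC28 (0.77), TMEM50B (0.63, adjusted p = 0.0697, edgeR) and SYNJ1 (0.28), and the lowest to ITSN1 (-0.17), DONSON (-0.15) and SON (-0.14). SON and DONSON share 1458 exon bases on opposite strands, and DONSON shares 1081 with CRYZL1 on the same strand, so their reads may be mixed.

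Among 9130 genes with a symbol and a mean of at least 5 CPM, the pattern over the 4 libraries nearest to that of IFNAR1 was found in TTC39A and NUB1, by the root mean square distance of centred log2 values (0.0203 and 0.0213). For the joint IFNAR2 row the nearest genes were SGSM3 and P4HA1 (0.0706 and 0.0821). BBX and DMXL2 were nearest to IFNGR1 (0.0437 and 0.0449). ECE1 was among the nearest to IFNLR1 (0.0321), whose pattern is flattened by the pseudocount of 0.5 CPM at its low level. These names are a description of 4 libraries alone, and NUB1 and DMXL2 share 981 and 184 exon bases with genes on the opposite strand.

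Interferons with a row under their symbol were counted at very low levels in both groups. Of 40 ligand symbols listed, 6 had a row under their symbol and 0 of the 6 passed the low-count filter, so that none was tested. IFNB1 had 0 counts in all 4 libraries. IFNG, the ligand of the type II receptor, had 1 count in control replicate 8 and 0 elsewhere. IFNE had 2 counts in overexpressing replicate 1 alone, and IFNK had 1 count in each overexpressing library and 0 in the controls. IFN-ALPHA-15 was counted 4 and 10 times in the overexpressing replicates and 5 and 11 times in the controls, and IFN-DELTA-1 8 and 6 times against 8 and 7 times. The type I interferon locus on chromosome 1 holds further rows without a symbol, and 29 rows lay by at least 50% of their span in RefSeq interferon genes. These 29 include IFNE, IFN-DELTA-1 and IFNB1 but not IFN-ALPHA-15 or other rows that lie mostly outside a RefSeq interferon gene, so their sum is not that of the whole locus. Together the 29 rows had 55 and 29 counts in the overexpressing replicates and 39 and 36 counts in the controls, and no row among them exceeded 9 counts in a library. Scaled for depth, these sums were 2.21 and 1.39 CPM in the overexpressing replicates and 2.50 and 2.06 CPM in the controls. With the 20 other rows of the locus, IFN-ALPHA-15 and rows without a symbol, which held up to 59 counts in a library, the sums were 198 and 126 counts against 126 and 187 counts. These wider sums are not scaled for depth, which was higher in both overexpressing libraries, so they do not compare the groups. The order of the libraries by counts was then different, and whether the rows without a symbol hold interferon reads was not tested. Interferon alpha, delta and omega genes are close copies of each other, so the division of reads among them is uncertain.

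The other class II cytokine receptors, relatives of the interferon receptor chains by protein fold, were mostly undetected. Of 7 listed, 5 had a row under their symbol and IL10RB and IL20RB had none. IL22RA1 and IL22RA2 were at 0 counts in all 4 libraries, IL10RA had 2 counts in each overexpressing library and 0 in the controls, and IL20RA had 2 counts in overexpressing replicate 3 alone. IL22RA2 and IL20RA lie 16.9 kb and 76.4 kb from IFNGR1 on chromosome 1, and IL22RA1 lies 7.3 kb from IFNLR1 on chromosome 6. F3, the tissue factor that starts blood clotting, was the one relative tested, at 1.61 and 1.54 CPM in the overexpressing replicates and 23.8 and 6.29 CPM in the controls. It was lower in both overexpressing libraries, with a log2 fold change of -3.25 (SE 0.61, adjusted p = 0.00672, edgeR), and the 2 controls differed widely. The value was -1.995 with control replicate 6 left out and -3.90 with control replicate 8 left out. F3 shares 1394 exon bases with ABCD3 on the opposite strand.

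Of the 6 kinases and transcription factors bound to or activated by the receptors, 5 were tested, 1 rose and 0 fell, beside 13.9% and 15.5% of all genes. The count of 0 lower was the same at an unadjusted p under 0.05, in DESeq2 and in limma-voom. JAK1, which serves all 3 interferon receptor types, was at 41.4 and 31.2 CPM in the overexpressing replicates and 9.98 and 8.86 CPM in the controls. The overexpressing libraries were far above the controls, with a log2 fold change of 1.95 (SE 0.22, adjusted p = 0.000917, edgeR). TYK2, the kinase on IFNAR1, was at 170 and 141 CPM in the overexpressing replicates and 109 and 115 CPM in the controls. It was above the controls in both overexpressing libraries but stood just outside the threshold, at a log2 fold change of 0.47 (SE 0.15, adjusted p = 0.0504, edgeR). With DESeq2 and with limma-voom, 3 of the 5 passed instead of 1. JAK2, the kinase on IFNGR2, had a log2 fold change of 0.092 (adjusted p = 0.838, edgeR). Its direction turned with the library left out, at -0.23 when this was control replicate 6 but 0.52 when it was 8. STAT2 had one of -0.063 (adjusted p = 0.829, edgeR). IRF9, the DNA-binding partner of STAT2, had 0 and 9 counts against 1 and 3 counts and was not tested. STAT2 shares 2190 exon bases with PAN2 and IRF9 shares 1449 with REC8 on the same strand, so their counts are uncertain.

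Of 23 listed symbols for inhibitors of the receptors and enzymes of receptor turnover, in which RNF41 and NRDP1 name the same gene, 21 were tested, 2 rose and 4 fell, and the median log2 fold change was -0.062. These shares are near the 13.9% higher and 15.5% lower among all genes and say little about the list. The 2 that rose also passed the fold limit, and the 4 that fell did not. SOCS1, which blocks the JAK kinases, was at 28.2 and 28.6 CPM in the overexpressing replicates and 12 and 11.9 CPM in the controls. Its log2 fold change was 1.25 (SE 0.18, adjusted p = 0.00247, edgeR), and replicates of each group lay close together. USP18, which binds IFNAR2 and dampens type I signalling, was at 20.4 and 20.2 CPM against 7.3 and 9.26 CPM, with a log2 fold change of 1.29 (SE 0.22, adjusted p = 0.00488, edgeR). The 4 that fell were FBXW7, PIAS1, PIAS3 and PRKD2, named after their values were seen, with log2 fold changes between -0.76 and -0.62. PIAS1 shares 2530 exon bases with CALML4 and FBXW7 shares 198 with an unnamed gene on the opposite strand. PIAS3 shares 203 with ANKRD35 on the same strand, and 290 with NUDT17 and 117 with POLR3C on the opposite strand, so the counts of all 3 are uncertain. Without overexpressing replicate 1, and again without overexpressing replicate 3, 0 of the list fell, where 7.16% and 10.3% of all genes did. The log2 fold changes of the 4 were then between -0.80 and -0.53, close to those with all libraries.

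**Figure D3:**
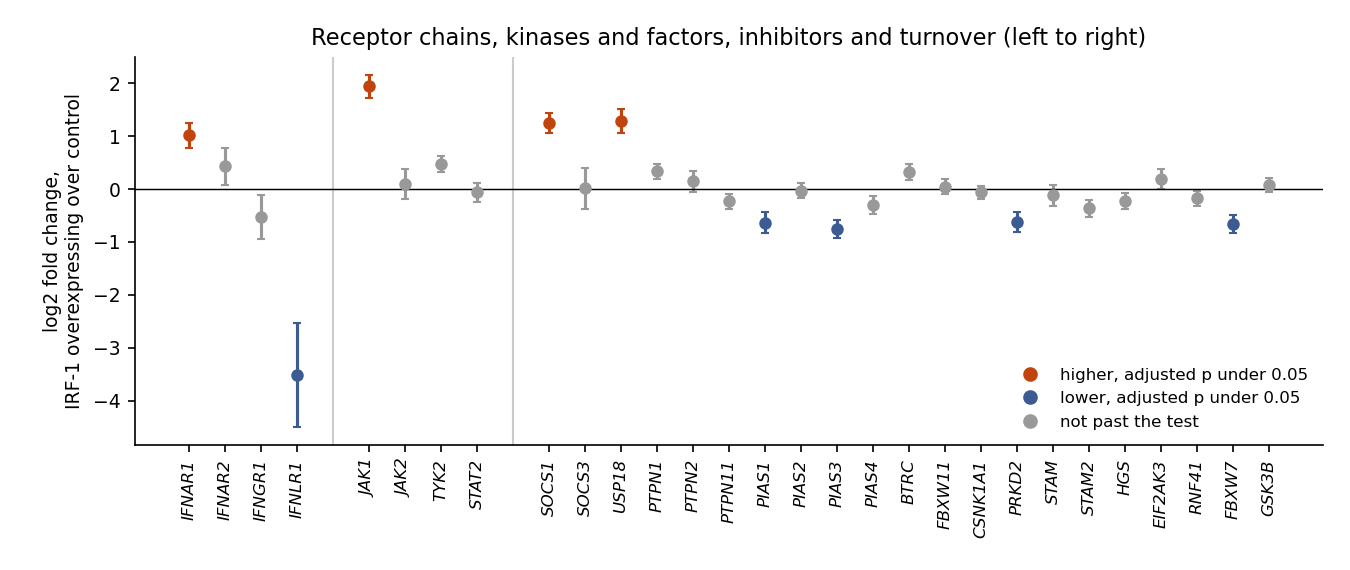
Log2 fold changes (IRF-1 overexpressing over control, error bars 1 SE) of the tested receptor chains, of 4 kinases and factors, and of the inhibitors and turnover enzymes, coloured by whether the adjusted p in edgeR was under 0.05. JAK1 (1.95), USP18 (1.29), SOCS1 (1.25) and IFNAR1 (1.02) are the 4 genes that rose, IFNLR1 has the lowest value (-3.52) and the widest error bar, and the 4 inhibitors and turnover enzymes that fell lie between -0.76 and -0.62.

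Of 35 listed symbols for targets of type I and III interferons, 24 were tested. Among these, 16 rose and 1 fell, beside 13.9% and 15.5% of all genes. Whether these targets, or those of type II interferon below, changed through the receptors was not tested. RIGI and DDX58 in this list name the same gene. Of the 24, 5 passed the low-count filter through the overexpressing cells alone, so their place among the tested genes depended on a high level there. The other 19 reached the filter's limit in at least 1 library of each group, and 11 of them rose and 1 fell, beside 12.4% and 14.8% of all genes that did so. Their median log2 fold change was 1.07. With 1 library left out, the number of the 24 that rose was lowest without overexpressing replicate 1. The number of all genes that rose was lowest there as well. SAMD9, IFIT2, IFI35 and EPSTI1, with the highest fitted values of the list, are among the 5. SAMD9 was counted 402 and 206 times in the overexpressing replicates and 0 times in both controls. Against a floor of 3 counts per library its mean was at least 71.8-fold higher, or at least 54.5-fold by overexpressing replicate 3 alone. IFIT2 had 81 and 30 counts against 0 and 0, at least 12.9-fold higher, or at least 7.93-fold higher by overexpressing replicate 3 alone. IFI35 had 57 and 50 counts against 2 and 1, a ratio of 25.9 with a counting interval from 8.62 to 127. EPSTI1 had 46 and 30 counts against 2 and 1, a ratio of 18.4 with an interval from 6.06 to 91.1. Fitted log2 fold changes of IFI35 and EPSTI1 were 4.60 and 4.09, and without control replicate 6 they were 5.22 and 4.71. At the low end of the list was DHX58, a cytosolic sensor of viral RNA, at 1.61 and 2.12 CPM against 8.58 and 3.83 CPM. DHX58 had a log2 fold change of -1.73 (adjusted p = 0.0263, edgeR). It did not pass without overexpressing replicate 1 (-1.53), overexpressing replicate 3 (-1.93) or control replicate 6 (-1.04). TRIM25 (-0.49), RIGI (-0.074) and IFI6 (0.30) followed on the log2 scale and did not pass the test. RIGI changed sign without overexpressing replicate 1 (0.081) and without control replicate 6 (0.019), and IFI6 without control replicate 8 (-0.20).

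Of 30 listed symbols for targets of type II interferon, in which WARS1 and WARS name the same gene, 18 were tested. Among these, 10 rose and 3 fell, beside 13.9% and 15.5% of all genes. CD274 and NLRC5 passed the low-count filter through the overexpressing cells alone, and NOS2 through the controls alone. CD274 did not pass the test (log2 fold change 1.96, adjusted p = 0.0832, edgeR). Its value was 1.31 with control replicate 6 left out and 3.38 with control replicate 8 left out. Among the other 15, 9 rose and 2 fell, beside 12.4% and 14.8% of all genes at the limit in both groups, with a median log2 fold change of 1.25. DESeq2 called 1 lower in place of 3, and 0 fell without overexpressing replicate 1 or overexpressing replicate 3, and 1 fell without control replicate 6 and 1 without control replicate 8. Shares of all genes lower were 7.16% and 10.3% without these overexpressing replicates, and 13.6% and 16.5% without these controls. NLRC5, an activator of MHC class I genes, was counted 57 and 36 times against 0 and 0. Its mean was at least 11-fold higher, or at least 9.52-fold by overexpressing replicate 3 alone. PSMB8, a subunit of the immunoproteasome, was at 167 and 132 CPM against 9.22 and 5.66 CPM (log2 fold change 4.34, adjusted p = 0.000145, edgeR). GBP1, a guanylate-binding protein, had a log2 fold change of 4.17 (adjusted p = 0.000454, edgeR) and PSMB9 one of 3.64 (adjusted p = 0.000686, edgeR), which was 4.39 with control replicate 6 left out. NOS2 had 6 and 4 counts against 17 and 20 counts, and its fitted value (-2.32, adjusted p = 0.0175, edgeR) is given as a description and not as support for a difference. The next lowest values were those of CD74 (-1.74, adjusted p = 0.0349, edgeR) and CIITA (-1.13, adjusted p = 0.0495, edgeR), followed by ICAM1 (-0.53), which did not pass the test. NOS2 and CIITA did not pass with any of the 4 libraries left out, although their log2 fold changes stayed between -2.48 and -2.17 and between -1.14 and -1.12. CD74 did not pass without overexpressing replicate 1 (-1.46), overexpressing replicate 3 (-2.03) or control replicate 6 (-1.20). The gene that fell without control replicate 6 was LAP3 (-0.40), which did not pass the test with all libraries (-0.32). The chemokines CXCL9 and CXCL10 and the enzyme IDO1 were at 0 counts in all 4 libraries. CD74 shares 1569 exon bases with TCOF1, PSMB9 shares 327 with TAP1 and NOS2 shares 257 with an unnamed gene, each on the opposite strand. On the same strand, CD74 shares 420 with an unnamed gene, DHX58 shares 303 with KAT2A and RIGI shares 290 with TOPORS. SOCS1 is counted in this list as well as among the inhibitors.

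Markers of other cell types differed in how they stood between the groups, and their part in the results for the receptor chains was not tested. For comparison with the 3 lists in this paragraph, 13.9% of all tested genes rose and 15.5% fell. Of 12 simple epithelium markers, 7 were tested, 5 fell and 1 rose, and 1 of the 5, CLDN4, passed the low-count filter through the controls alone. Their summed level was 326 and 1199 CPM in the overexpressing replicates 1 and 3 against 15841 and 9742 CPM in the controls. KRT8 was the most abundant of them, and without it the sums were 76.1 and 185 CPM against 3827 and 2254 CPM. CDX2 was at 0 counts in all 4 libraries. The summed level was lower with overexpression, as was IFNLR1. This direction was not particular to these markers, since the sums of the fibroblast and pluripotent cell markers given below were lower too. Of 12 fibroblast markers, 5 were tested, 3 fell and 1 rose, and 1 of the 3, DCN, passed that filter through the controls alone. The 1 that rose, COL1A2, did not pass without overexpressing replicate 1 (log2 fold change 0.65). Fibroblast markers had summed levels of 267 and 216 CPM against 331 and 274 CPM, with FBN1 as the most abundant gene, without which the sums of the groups overlapped, and COL6A3 and LUM at no more than 3 counts in any library. Of 12 leukocyte markers, 6 were tested and 1 rose, with summed levels of 245 and 161 CPM against 17.1 and 11.7 CPM and a median log2 fold change of -0.28. The gene that rose was LCP1, the most abundant, at 234 and 149 CPM against 1.92 and 1.2 CPM, and the sums of the groups overlapped without it. CD3E and CD48 were at 0 counts in all 4 libraries, and PTPRC had 1 count in control replicate 8 alone.

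Of 13 markers of pluripotent cells, 7 had a row under their symbol and 5 were tested, of which 3 fell and 0 rose, where 15.5% of all genes fell and 13.9% rose. POU5F1, SOX2, DPPA3, SALL4, TDGF1 and ZFP42 had no row under their symbol and were not analysed here. Summed levels were 1234 and 1277 CPM in the overexpressing replicates against 1480 and 1642 CPM in the controls, with DNMT3B the most abundant. Without DNMT3B the sums were 199 and 272 CPM against 786 and 645 CPM. LIN28A, CDH1 and ESRRB were the 3 that fell. PRDM14 was at 0 counts in all 4 libraries, and NANOG had between 5 and 11 counts in each.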

How the data were processed

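RNA-seq libraries of IRF-1 overexpressing cells (2 libraries) and control cells (2 libraries) were used. Per the labels and the file headers, the authors counted reads on the exons of 24358 Ensembl genes and deposited these counts for each library without scaling, beside exon coordinates and length in bases. The submitters' processing notes name HISAT2 2.0.4 and featureCounts 1.6.4, and the reads were mapped to Sscrofa11.1. The strand setting, the handling of multi-mapped reads and the annotation release are not given in the sources used here. Symbols were matched to 14692 of the 24358 identifiers. The ChIP-Seq libraries were not analysed here.

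Counts were fitted with edgeR 4.0.16 in R 4.3.3 (TMM, filterByExpr by group, quasi-likelihood test, 2-sided, Benjamini-Hochberg adjustment over 13250 genes). SE was taken as the log2 fold change divided by the square root of F. The alternatives used limma 3.58.1, DESeq2 1.42.0, other normalizations and filters, counts without the 37 mitochondrial genes or the 10 highest genes, and each library left out in turn. Python 3.11.15 with scipy 1.17.1, pandas 2.3.3 and numpy 2.4.6 served for tables, and matplotlib 3.10.9 for figures. The fit was run on counts simulated with a common dispersion of 0.0313 for all 13250 genes, of which 200 were changed by a log2 fold change of 2. It called 195 of these with the right sign, and 11 unchanged genes. Differences in spread between genes were not simulated, so this result does not vouch for single calls. Nothing in the labels says that the libraries came from separate cultures, so p-values measure only the spread between these libraries, which may be technical. Counting intervals of count ratios, and floors, cover counting error only. Intervals of log2 fold changes come from the edgeR fit and include the spread between these libraries.

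The members and gene lists were chosen with earlier results of these data known. Named genes are IRF1, the members, all relatives, kinases and factors, inhibitors past both limits, the 4 highest and 4 lowest tested targets of each list, ligands with a count, the 3 highest and 3 lowest cluster neighbours, and the 2 nearest patterns of each tested member. The search of the interferon locus by coordinates, the sums without the most abundant marker and the list counts over genes at the filter's limit in both groups were added after the data were seen. CD274, CLDN4, COL1A2, DCN and LAP3 were named after their values were seen. Some single genes covered by the rule are not reported here.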

Additional observations from a re-analysis of the deposited data

How the results depend on the processing

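IRF1 and IFNAR1 kept their direction in all 13 alternatives, IFNAR2 and IFNGR1 kept theirs without passing the test in any, and IFNLR1 stayed lower in the 10 alternatives that gave a value. With DESeq2 the IFNLR1 log2 fold change was -3.64 and no longer past the threshold, so that 0 members were lower, and 1 type II target was lower and 3 kinases and factors were higher. With a filter of at least 1 CPM in 2 libraries, IFNLR1 gave no value, 0 members were lower and 2 kinases and factors were higher. Over genes at the limit of the low-count filter in at least 1 library of each group, an alternative added after the data were seen, 0 members were lower. The number of kinases and factors higher, 1 in the main test, was 2 with size factors of the DESeq2 type, without mitochondrial genes and without the 10 highest genes, and 3 without a low-count filter and with limma-voom. The cause of these differences was not tested.

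Leaving out 1 library leaves a group with a lone library, which edgeR assumes to vary like the other group. The log2 fold change then ranged from 0.85 to 1.18 for IFNAR1 and from -6.48 to -2.48 for IFNLR1, which gave no value without control replicate 6 or control replicate 8. Members higher ranged from 0 to 1 and members lower from 0 to 1. All genes higher ranged from 858 to 2119 and all genes lower from 967 to 2274, with the lowest counts without overexpressing replicate 1. Kinases and factors higher ranged from 1 to 2, and inhibitors and turnover enzymes lower from 0 to 4. Type I and III targets higher ranged from 10 to 16 and lower from 0 to 1, and type II targets lower from 0 to 1. Without a low-count filter IFNGR2 was tested on 7 counts and did not pass (adjusted p = 0.785, edgeR), and other alternatives gave it no value. The depth limits IFNGR2, IFNLR1 and the ligands, where 3 counts correspond to between 0.121 and 0.192 CPM.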
